A study of Homo sapiens with 10 samples.

Results

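The enzymes of the mevalonate pathway were followed in PC3 cells treated with an agonist of the liver X receptors (LXRs). They were picked by gene name as the enzymes that lead from acetyl-CoA to cholesterol, together with those of the dolichol, ubiquinone and protein prenylation branches, which gave 31 genes of the 62656 in the expression table. The trunk held 8 genes, the sterol branch 12 and the isoprenoid branch 11.

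PC3 is an established human prostate cancer line derived from a bone metastasis, labelled as epithelial. Cells of both groups were grown in RPMI-1640 with 10% FBS and 2 mM of L-glutamine and starved overnight. They were then kept for 24 h in RPMI-1640 with L-glutamine and either DMSO, the vehicle, or 1 µM of GW3965, a synthetic LXR agonist, in DMSO. Each group had 5 libraries, numbered 1 to 5, of RNA depleted of ribosomal RNA. Whether the 5 were separate cultures is not given in the sources used here, so p-values measure the spread between these libraries.

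The mevalonate pathway joins acetyl-CoA units into isoprene units and these into farnesyl diphosphate, the last product that all branches share. From there the sterol branch builds squalene, lanosterol and cholesterol, and the isoprenoid branch makes geranylgeranyl diphosphate, dolichol, the tail of ubiquinone and the prenyl anchors of proteins. The SREBP transcription factors switch on the trunk and sterol enzymes when sterols are scarce, while LXRs sense oxidised sterols and switch on cholesterol export.

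Levels are given as RPKM, reads scaled to exon length and by the authors' factor for each library, and so can be compared between genes. A log2 fold change is the mean of log2(RPKM + 0.1) in GW3965 minus that in DMSO. It was tested with limma over the 20402 genes that reached 0.5 RPKM on average, and a gene was called at a Benjamini-Hochberg adjusted p under 0.05. Of the 31 enzymes, 29 passed the filter. IDI2 and SRD5A3 did not.

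The libraries held between 30429384 and 41636379 reads on genes. Known LXR targets were read as a check of the treatment. ABCA1, a cholesterol exporter, was at 3.43 ± 1.34 RPKM (SD, n = 5) with DMSO and 16.5 ± 2.37 with GW3965, and ABCG1 and MYLIP were called higher as well, with log2 fold changes of 2.13 and 0.74 (limma adjusted p = 0.000124 and 0.00714). The MYLIP call was lost in 3 of 22 alternatives. The epithelial markers KRT8 and KRT18 averaged 36.6 and 49.6 RPKM, EPCAM 1.73 and PTPRC of leukocytes 0.0164, and KLK3 was 0 in every library. KRT8, KRT18 and EPCAM were not called between the groups, and PTPRC and KLK3 were below the filter and not tested.

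Library DMSO 5 and library GW3965 5 stood apart in the trunk and sterol genes. Of the 19 tested genes of these branches, 15 had their highest value of all 10 libraries in GW3965 5 and 10 had their lowest in DMSO 5. For each of the 19 genes, the log2 fold change is also given without the 2 libraries.

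The promoters of the enzymes are shown first, since SREBPs are known to act on them together with CCAAT-binding and GC-box-binding factors. RefSeq windows from 250 bases before to 50 after the gene start (GRCh38.p14) were at hand for 27 of the 31 genes and for 27305 genes in all. Both strands were searched. A CCAAT box (CCAAT) was in the windows of 13 of 17 trunk and sterol genes, 6 of 10 isoprenoid genes and 39.7% of all genes. A GC box (GGGCGG) was in 14 of 17, 9 of 10 and 48.3%. The E-box (CACGTG) was in 2 of 17 and 4 of 10, against 8.78% of all genes, and the 4 isoprenoid genes were those of the dolichol steps, DHDDS, NUS1, DOLK and SRD5A3. The SRE (TCACNCCAC) was in none of the 27 and in 1.39% of all genes, and the DR4 element of LXRs in none and in 0.0256%. A match is only a run of letters, and its absence concerns only this window.

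Stretches upstream of 4 genes are printed 5′ to 3′ along the gene's strand. LSS and FDPS are the enzymes whose groups of libraries did not overlap, HMGCS1 opens the trunk's HMG-CoA step, and DHDDS stands for the isoprenoid branch. Capitals mark CCAAT and GC boxes on either strand, so that ATTGG is a CCAAT box and CCGCCC a GC box read on the opposite strand.
LSS chr21:46228825-46228974, strand -: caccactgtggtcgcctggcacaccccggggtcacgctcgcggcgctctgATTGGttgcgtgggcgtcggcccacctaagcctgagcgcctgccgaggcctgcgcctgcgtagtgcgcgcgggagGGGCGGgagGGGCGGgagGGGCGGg
FDPS chr1:155308616-155308747, strand +: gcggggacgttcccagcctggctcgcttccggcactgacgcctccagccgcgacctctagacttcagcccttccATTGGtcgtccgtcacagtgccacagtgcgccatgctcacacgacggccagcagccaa
HMGCS1 chr5:43313513-43313662, strand -: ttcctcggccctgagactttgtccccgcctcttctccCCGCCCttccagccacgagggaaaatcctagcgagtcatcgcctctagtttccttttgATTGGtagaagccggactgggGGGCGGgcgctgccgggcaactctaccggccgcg
DHDDS chr1:26432132-26432281, strand +: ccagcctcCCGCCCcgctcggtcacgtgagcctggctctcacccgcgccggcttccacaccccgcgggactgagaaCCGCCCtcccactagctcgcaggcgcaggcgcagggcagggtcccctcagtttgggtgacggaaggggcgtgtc
The LSS stretch had a CCAAT box far upstream and a row of GC boxes next to the gene, the HMGCS1 stretch had both kinds in turn, and the printed FDPS stretch had a CCAAT box. The FDPS window holds further CCAAT boxes and a GC box outside the printed stretch. The printed DHDDS stretch had GC boxes.

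Across the 29 tested enzymes, none was called between GW3965 and DMSO. The same test called 32 of all tested genes, 0.157%, of which 30 were higher and 2 lower with GW3965. At an unadjusted limma p under 0.05, 4 enzymes were higher, LSS, FDPS, HMGCS1 and DHCR7, and 0 were lower, where 4.64% of all tested genes were higher. In 2 enzymes, LSS and FDPS, all 5 GW3965 values exceeded all 5 DMSO values, as in 1.35% of all tested genes. In such bulk RNA, fewer cells with a transcript and less of it per cell cannot be told apart.

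By branch, log2 fold changes were above 0 in 7 of 7 tested trunk genes, with a median of 0.14, in 12 of 12 sterol genes, with a median of 0.12, and in 5 of 10 isoprenoid genes, with a median of 0.0037. In all, 24 of 29 enzymes were above 0, beside 51.1% of all tested genes, whose median was 0.0034. When libraries were instead scaled to equal summed RPKM, 82.5% of all tested genes and all 29 enzymes were above 0, since that scaling moved the median of all genes to 0.14. Relative to it the branch medians stood at 0.14, 0.12 and 0.000039. The members are not replicates, and the branches were described without a test. Without GW3965 5 the trunk median was 0.08, and without DMSO 5 the sterol median was 0.07. Without both, 14 of the 19 trunk and sterol genes were above 0, with a median of 0.07, beside 49.7% of all tested genes, and 5 of the 10 isoprenoid genes.

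**Figure D1:**
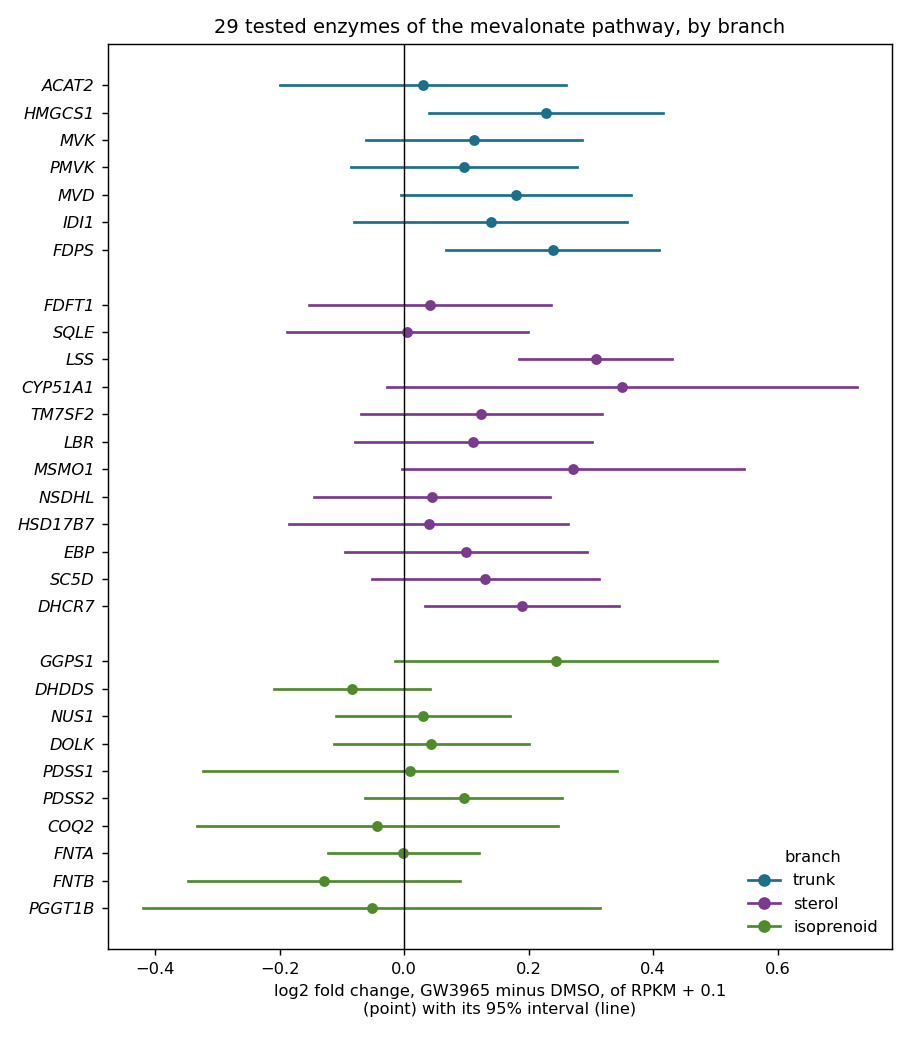
Log2 fold change of each tested enzyme, GW3965 minus DMSO (point), with its 95% interval (line), grouped by branch. All 19 trunk and sterol points lie above 0, from 0.00 for SQLE to 0.35 for CYP51A1, and the 10 isoprenoid points lie on both sides.

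The trunk begins with ACAT2, which joins acetyl-CoA units into acetoacetyl-CoA. ACAT2 was at 12.8, 14.5, 16.6, 14.2 and 11.9 RPKM in DMSO 1 to 5 and 12.6, 12.8, 14.6, 14.3 and 17.1 in GW3965 1 to 5. The groups lay over each other, and only GW3965 5 exceeded the highest DMSO library. The log2 fold change of 0.03 (95% interval -0.20 to 0.26) was the lowest of the trunk, and it was -0.09 without DMSO 5 and GW3965 5. On the opposite strand, exons of SOD2-OT1, SOD2 and TCP1 covered 52.3% of the ACAT2 exon bases.

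HMGCS1 (ENSG00000112972, chromosome 5, 43289395 to 43313512, GRCh38) makes HMG-CoA, and its upstream stretch is printed above. Its levels were 18.8, 20.9, 19.1, 16.4 and 17.0 RPKM with DMSO and 20.3, 21.1, 20.5, 20.6 and 25.7 with GW3965. All GW3965 libraries but GW3965 5 lay within 1 RPKM of each other, and 4 of the 5 DMSO libraries were below all of them, while DMSO 2 fell among them. The mean went from 18.5 ± 1.78 to 21.6 ± 2.30 (SD, n = 5). On the log2 scale this was 0.23 ± 0.09 (SE), with a limma adjusted p of 0.579. Without DMSO 5 and GW3965 5 it was 0.14.

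The kinases MVK and PMVK, which phosphorylate mevalonate in turn, had small differences. MVK was at 4.24, 4.50, 4.88, 4.89 and 4.11 RPKM with DMSO and at 4.65, 4.39, 4.71, 5.29 and 5.47 with GW3965. PMVK was at 13.6, 14.2, 15.8, 15.5 and 14.6 RPKM with DMSO and at 13.9, 13.9, 16.2, 17.4 and 17.6 with GW3965. In both genes the groups overlapped, with GW3965 4 and GW3965 5 at the top. Their log2 fold changes were 0.11 (95% interval -0.06 to 0.29) and 0.10 (-0.09 to 0.28). Without DMSO 5 and GW3965 5 they were 0.04 and 0.05.

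MVD, the decarboxylase that yields isopentenyl diphosphate, was at 11.5, 12.3, 13.8, 12.2 and 11.0 RPKM with DMSO and 11.9, 13.7, 13.6, 13.8 and 16.0 with GW3965. DMSO 3 reached the level of most GW3965 libraries, and GW3965 1 fell among the DMSO values. This made a log2 fold change of 0.18 ± 0.08 (limma adjusted p = 0.725), and 0.09 without DMSO 5 and GW3965 5.

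IDI1 and IDI2 are isomerases that interconvert the isoprene units. IDI1 averaged 6.60 ± 0.850 RPKM (SD, n = 5) with DMSO and 7.25 ± 0.724 with GW3965, with its lowest value, 5.27, in DMSO 4. Its log2 fold change of 0.14 became 0.07 without DMSO 5 and GW3965 5. IDI2, a close relative known mainly from muscle, had 0 to 3 reads in a library, 3 in all with DMSO and 5 with GW3965, so no fold is given. IDI2 was at 0, 0.0174, 0.0244, 0.0194 and 0 RPKM with DMSO and 0, 0.0553, 0.0390, 0 and 0 with GW3965. Its exact two-sided permutation p over the libraries was 0.683, and 75.1% of its exon bases lie opposite exons of GTPBP4 and IDI2-AS1.

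FDPS (ENSG00000160752, chromosome 1, 155308748 to 155320666, GRCh38) makes farnesyl diphosphate, where the branches part. FDPS was at 14.6, 16.5, 15.9, 15.7 and 12.7 RPKM with DMSO and 16.8, 17.1, 17.9, 17.3 and 19.7 with GW3965. Every GW3965 library was above every DMSO library, though DMSO 2 and GW3965 1 were close. The mean was 15.1 ± 1.51 with DMSO and 17.7 ± 1.16 with GW3965 (SD, n = 5). The log2 fold change was 0.24 ± 0.08, at a limma adjusted p of 0.468. It was 0.14 without DMSO 5 and GW3965 5. The table also lists 8 FDPS pseudogenes, which took 9.32% of the reads of FDPS and these pseudogenes together.

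The first enzymes of the sterol branch, FDFT1 and SQLE, differed little between the groups. SQLE, the epoxidase that oxidises squalene, had the highest mean level of all 31 enzymes, 37.4 RPKM. SQLE was at 33.7, 39.1, 40.5, 40.5 and 32.9 RPKM with DMSO and 33.2, 34.2, 38.1, 39.6 and 42.3 with GW3965. Both groups covered nearly the same range, and the log2 fold change was 0.0048 (95% interval -0.19 to 0.20). FDFT1, squalene synthase, was at 11.6, 12.9, 13.6, 12.6 and 10.4 RPKM with DMSO and 11.6, 11.5, 12.1, 13.0 and 14.6 with GW3965. Here too GW3965 5 alone exceeded the DMSO range, with a log2 fold change of 0.04 (-0.15 to 0.24). Both values turned below 0 without DMSO 5 and GW3965 5, to -0.08 for SQLE and -0.07 for FDFT1.

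LSS (ENSG00000160285, chromosome 21, 46188141 to 46228824, GRCh38), which closes the rings of lanosterol, had the clearest separation of all the enzymes. LSS was at 12.2, 13.3, 13.8, 13.6 and 12.6 RPKM with DMSO and 16.5, 15.3, 16.1, 15.7 and 17.5 with GW3965. The lowest GW3965 library, GW3965 2, stood above the highest DMSO library, DMSO 3. The mean went from 13.1 ± 0.642 to 16.2 ± 0.841 (SD, n = 5), 1.24-fold on the log2(RPKM + 0.1) scale. The log2 fold change of 0.31 ± 0.06 (95% interval 0.18 to 0.43) missed the threshold with a limma adjusted p of 0.0773. It passed in 3 of 22 alternatives, at 0.0256 with the first principal component as a covariate, 0.0402 with library weights and 0.0491 with voom on the recovered reads. In the others the limma adjusted p ran up to 0.811, with equal summed RPKM, and was 0.232 with a replicate block. Without DMSO 5 and GW3965 5 the log2 fold change was 0.27 (adjusted p = 0.401).

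**Figure D2:**
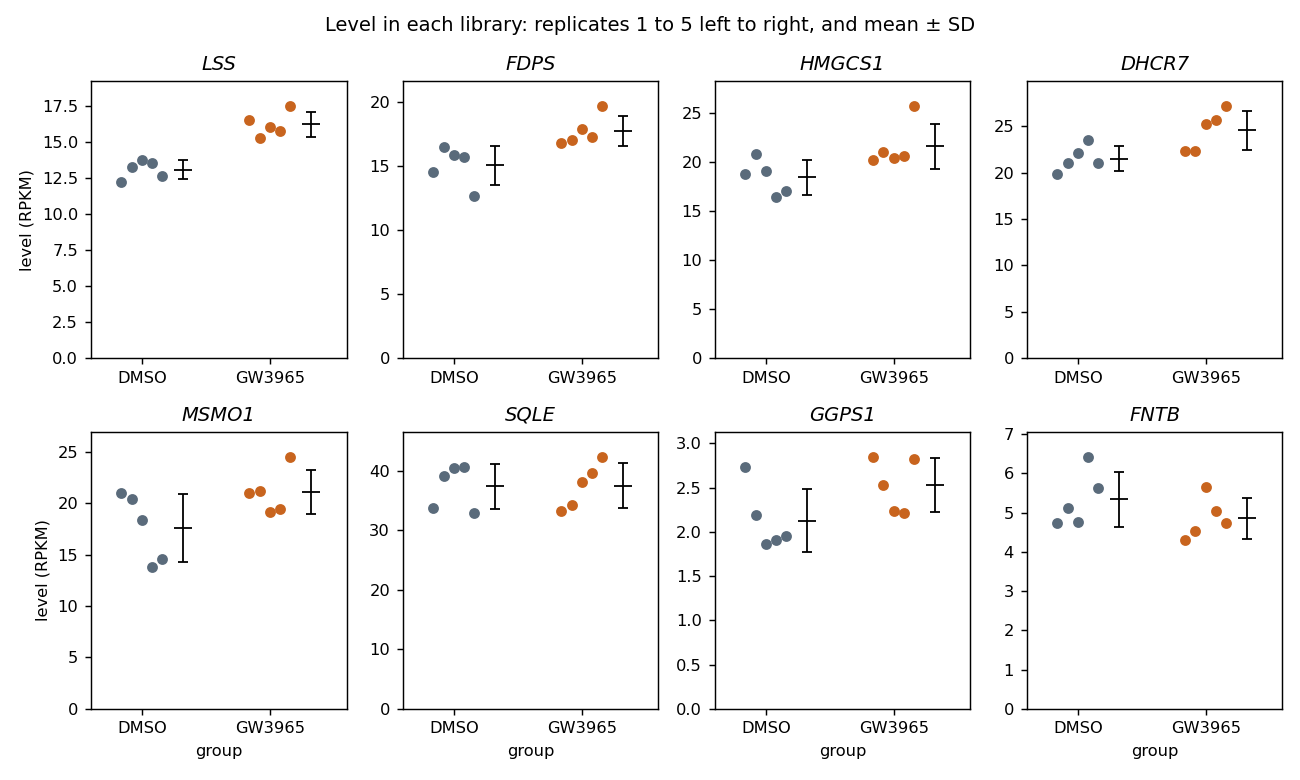
Level in RPKM of 8 enzymes in each DMSO and GW3965 library, replicates 1 to 5 from left to right in each group, with the group mean and SD beside them. LSS and FDPS separate fully, HMGCS1, DHCR7, MSMO1 and GGPS1 overlap in part, SQLE covers nearly the same range in both groups, and FNTB is lower on average with GW3965.

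CYP51A1, the lanosterol demethylase, had the highest log2 fold change of the 29, 0.35, and the lowest level, with 81 to 230 reads in a library. CYP51A1 was at 0.917, 1.12, 0.641, 0.989 and 1.05 RPKM with DMSO and 1.01, 1.04, 1.16, 1.25 and 1.70 with GW3965. GW3965 3, 4 and 5 exceeded all DMSO libraries, and GW3965 1 and 2 did not. The 95% interval was -0.03 to 0.73 and the limma adjusted p 0.746. CYP51A1 did not keep its place under every setting. With a pseudocount of 1 its log2 fold change was 0.20 and that of LSS 0.29, without DMSO 3 the values were 0.23 and 0.33, and without GW3965 5 they were 0.23 and 0.28. Without DMSO 5 and GW3965 5 together the log2 fold change of CYP51A1 was 0.28.

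Few of the reads of the CYP51A1 family were listed under the gene itself. Its pseudogenes CYP51A1P1 and CYP51A1P2 had 486 to 710 and 541 to 831 reads in a library, and with CYP51A1P3 they held 89.2% of the family's reads, a larger share than in any other enzyme with pseudogenes, of which NUS1 came next with 19.7%. Of the CYP51A1 exon bases, 79.3% overlap exons of AC000120.2 or AC000120.3 on the same strand, and 12.1% and 8.95% of its 50-base windows recur in CYP51A1P2 and CYP51A1P1. How reads that fit more than 1 gene were counted is not given in the sources used here, so the level of CYP51A1 is uncertain.

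CYP51A1P2 was at 13.7, 11.8, 11.9, 12.4 and 11.2 RPKM with DMSO and 14.2, 13.9, 13.4, 14.4 and 17.0 with GW3965, with a log2 fold change of 0.25 ± 0.08 (limma adjusted p = 0.397). CYP51A1P1 was at 11.6, 10.1, 10.7, 11.5 and 9.99 RPKM with DMSO and 12.7, 11.1, 11.0, 10.7 and 14.5 with GW3965, with a log2 fold change of 0.15 ± 0.09 (adjusted p = 0.816). Summed over the gene and its 3 pseudogenes and scaled to DMSO 1, the reads were 1453, 1316, 1268, 1392 and 1268 with DMSO and 1554, 1461, 1449, 1486 and 1887 with GW3965. GW3965 3 fell just under DMSO 1, and the other GW3965 libraries were above all DMSO libraries. The sum had a log2 fold change of 0.22 and an exact two-sided permutation p of 0.0159, unadjusted, in a sum chosen after its values were seen.

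**Figure D3:**
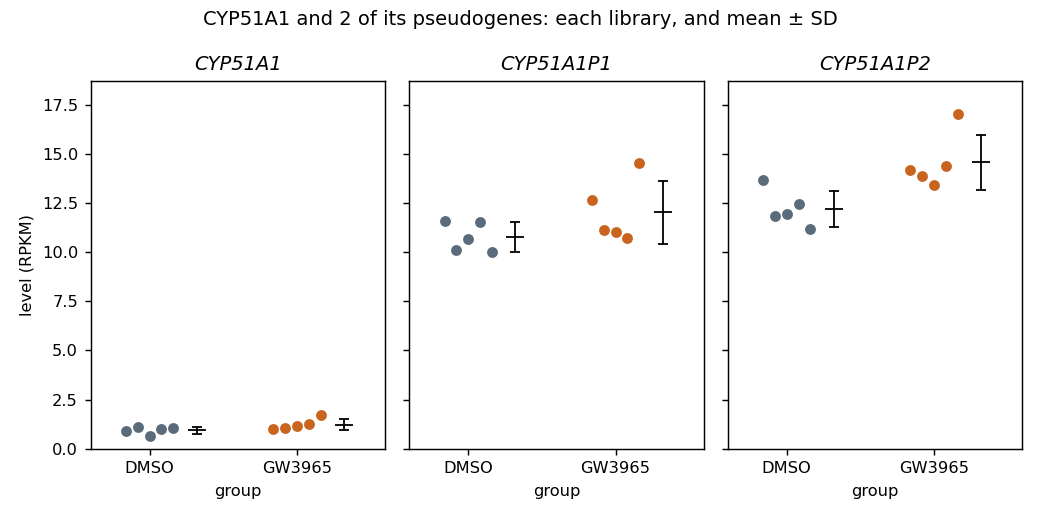
Level in RPKM of CYP51A1 and its pseudogenes CYP51A1P1 and CYP51A1P2 in each library (points, replicates 1 to 5 from left to right in each group), with the group mean and SD. The gene lies between 0.641 and 1.70 RPKM and the pseudogenes lie between 9.99 and 17.0 RPKM.

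The later sterol steps had log2 fold changes above 0 with all libraries in, and their groups overlapped. TM7SF2 and LBR, a pair of sterol reductases for the same step, had log2 fold changes of 0.12 and 0.11 and differed in level, at 15.2 ± 1.86 and 4.21 ± 0.446 RPKM with DMSO (SD, n = 5). TM7SF2 was the 1 sterol gene with GW3965 5 as its lowest GW3965 library, at 15.0 RPKM. NSDHL, EBP and SC5D, a dehydrogenase, an isomerase and a desaturase, had log2 fold changes of 0.04, 0.10 and 0.13. Without DMSO 5 and GW3965 5 the log2 fold changes were 0.11 for TM7SF2, 0.03 for LBR, -0.03 for NSDHL, 0.02 for EBP and 0.11 for SC5D.

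MSMO1, an oxidase that acts on sterol methyl groups after the CYP51A1 step, was at 21.0, 20.4, 18.4, 13.8 and 14.6 RPKM with DMSO and 21.0, 21.2, 19.2, 19.4 and 24.5 with GW3965. DMSO 1 and 2 stood within the GW3965 range and DMSO 4 and 5 far below it. The log2 fold change was 0.27 ± 0.12 (limma adjusted p = 0.719), and 0.15 without DMSO 5 and GW3965 5. DMSO 4 was also the lowest library for HMGCS1, IDI1, SC5D and PGGT1B. Without DMSO 4 the log2 fold change of HMGCS1 was 0.19.

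HSD17B7, a ketone reductase of the same methyl removal, was at 4.10, 3.62, 3.60, 3.0 and 2.98 RPKM with DMSO and 3.44, 3.82, 3.0, 3.65 and 3.82 with GW3965. The highest value was in DMSO 1, and no GW3965 library exceeded it. Its log2 fold change was 0.04 (95% interval -0.19 to 0.26). It fell below 0 without DMSO 4 (-0.0084), without DMSO 5 (-0.011) and without DMSO 5 and GW3965 5 together (-0.04). Of its 50-base windows, 14.2% recur elsewhere, mostly in its pseudogenes.

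DHCR7, which makes cholesterol from its last precursor, was at 19.9, 21.1, 22.1, 23.5 and 21.0 RPKM with DMSO and 22.4, 22.4, 25.2, 25.7 and 27.2 with GW3965. The groups met at DMSO 4, which exceeded GW3965 1 and 2. The mean went from 21.5 ± 1.37 to 24.6 ± 2.13 (SD, n = 5). The log2 difference was 0.19 ± 0.07 and the limma adjusted p 0.576. Without DMSO 5 and GW3965 5 the difference was 0.14.

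In the isoprenoid branch, GGPS1, which makes geranylgeranyl diphosphate, had a log2 fold change of the size of those of FDPS and HMGCS1. GGPS1 was at 2.73, 2.19, 1.86, 1.90 and 1.95 RPKM with DMSO and 2.85, 2.53, 2.23, 2.21 and 2.83 with GW3965. DMSO 1 stood within the upper GW3965 values and the other DMSO libraries below all of them. The log2 fold change was 0.24 ± 0.12 (limma adjusted p = 0.734). Exons of TBCE on the same strand cover 37.3% of the GGPS1 exon bases. Without GGPS1 the branch had 4 of 9 genes above 0 and a median of -0.0018.

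The dolichol enzymes, which make the lipid carrier of sugar chains, had a median log2 fold change of 0.03 over 3 tested genes. DHDDS, a subunit of the chain-building prenyltransferase, was at 4.23, 3.89, 4.19, 4.38 and 4.20 RPKM with DMSO and 3.83, 4.11, 3.97, 3.66 and 4.11 with GW3965. No GW3965 library exceeded the DMSO median of DHDDS, and DMSO 2 fell among the GW3965 values. Its log2 fold change was -0.08 ± 0.06 (95% interval -0.21 to 0.04, limma adjusted p = 0.849).

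NUS1, the partner subunit, had a log2 fold change of 0.03 (95% interval -0.11 to 0.17) and a higher level, 15.6 ± 0.674 RPKM with DMSO (SD, n = 5). DOLK, the dolichol kinase, was at 7.82, 8.22, 8.23, 9.51 and 9.03 RPKM with DMSO and 8.42, 8.0, 9.58, 9.12 and 9.0 with GW3965, groups that covered the same range, with a log2 fold change of 0.04. SRD5A3, the polyprenol reductase, was below the filter, with 82 to 150 reads in a library. SRD5A3 was at 0.417, 0.414, 0.352, 0.488 and 0.389 RPKM with DMSO and 0.355, 0.364, 0.514, 0.513 and 0.445 with GW3965, and GW3965 1 and 2 were among its lowest libraries and GW3965 3 and 4 its highest. The exact two-sided permutation p was 0.508.

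In the ubiquinone steps, PDSS1 and PDSS2 form the synthase of the isoprene tail and COQ2 joins the tail to the ring. PDSS2 was at 3.76, 3.59, 3.39, 4.15 and 3.58 RPKM with DMSO and 3.67, 4.01, 4.19, 4.24 and 3.64 with GW3965. Every GW3965 library was above the DMSO median, and DMSO 4 reached the upper GW3965 values, with a log2 fold change of 0.10 (95% interval -0.06 to 0.25). PDSS1 and COQ2 had log2 fold changes of 0.01 (-0.32 to 0.34) and -0.04 (-0.33 to 0.25).

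The protein prenylation enzymes attach farnesyl or geranylgeranyl groups to proteins such as those of the Ras family, and 0 of 3 were above 0, with a median of -0.05. These signs depended on the setting, since FNTA turned above 0 in 6 and PGGT1B in 5 of 22 alternatives, and all 3 were above 0 with equal summed RPKM. FNTB, the catalytic subunit of farnesyltransferase, was at 4.74, 5.12, 4.77, 6.42 and 5.63 RPKM with DMSO and 4.31, 4.54, 5.66, 5.05 and 4.74 with GW3965. Only GW3965 3 exceeded the DMSO median, and the groups overlapped, with a log2 fold change of -0.13 ± 0.10 (limma adjusted p = 0.872). It was -0.06 without DMSO 4 and -0.06 with library weights. Exons of the readthrough gene CHURC1-FNTB cover 42.1% of the FNTB exon bases on the same strand, and CHURC1-FNTB was listed at 0 in all libraries.

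FNTA, the subunit shared by both transferases, had nearly the same mean in both groups, 3.39 ± 0.183 and 3.39 ± 0.0552 RPKM (SD, n = 5). Its log2 fold change was -0.0018 (95% interval -0.12 to 0.12). PGGT1B, the catalytic subunit for geranylgeranyl groups, was at 4.16, 3.70, 3.56, 2.24 and 3.78 RPKM with DMSO and 3.96, 4.02, 2.78, 3.02 and 2.90 with GW3965. It was the most variable of the 3, with its lowest value in DMSO 4, and its log2 fold change was -0.05 (-0.42 to 0.31).

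**Figure D4:**
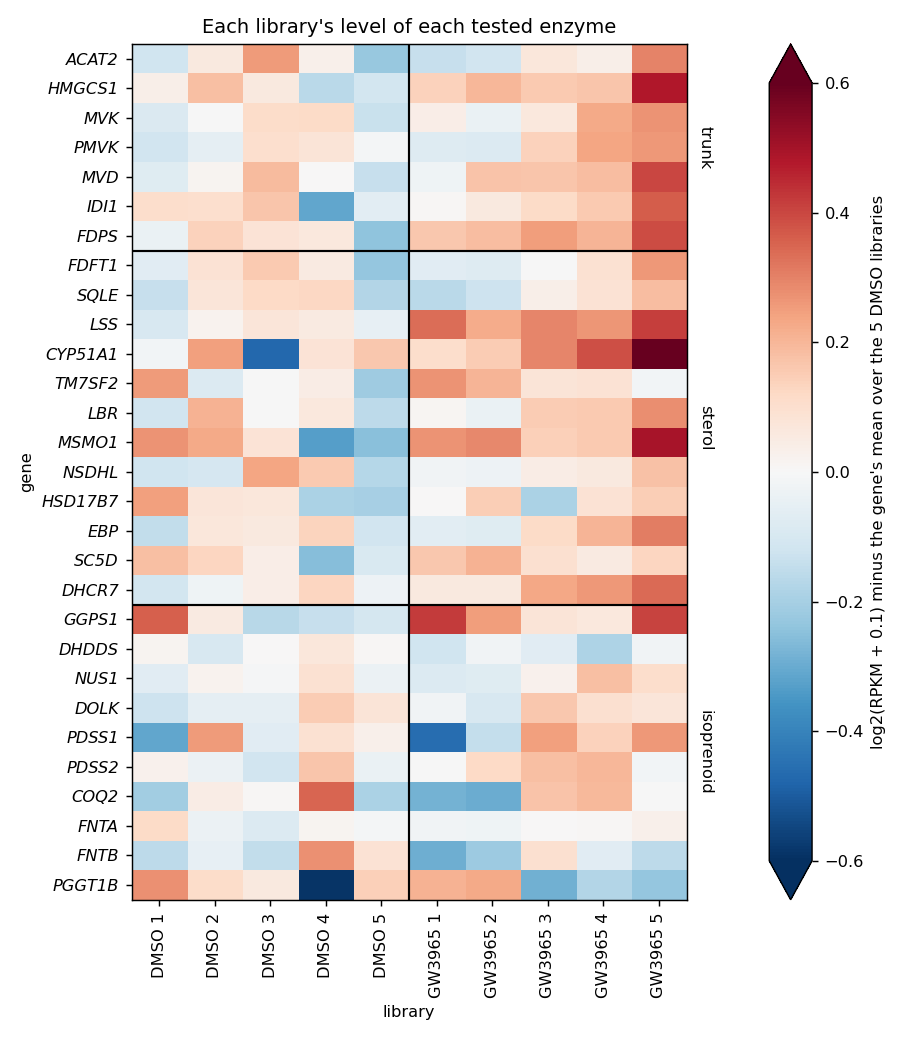
Log2(RPKM + 0.1) of each tested enzyme (rows, by branch) in each library (columns) minus the gene's mean over the 5 DMSO libraries, with the colour scale ending at 0.6 in either direction. GW3965 3, 4 and 5 are red in 17, 19 and 18 of the 19 trunk and sterol genes, with the largest median, 0.30, in GW3965 5. DMSO 5 is blue in 18 of the 19. The isoprenoid rows are red in 2 to 8 of 10 genes in a library.

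The branches were then compared library by library. Each gene's log2 level was set against its DMSO mean and the median was taken over the genes of a branch. For the 19 trunk and sterol genes the medians were -0.07, 0.07, 0.08, 0.05 and -0.14 in DMSO 1 to 5 and 0.01, 0.06, 0.11, 0.16 and 0.30 in GW3965 1 to 5. GW3965 1 and 2 lay within the DMSO range, GW3965 3 and 4 above it and GW3965 5 furthest from it. For the 10 isoprenoid genes the medians were -0.03, -0.01, -0.06, 0.09 and -0.0034 with DMSO and -0.05, -0.05, 0.09, 0.08 and 0.01 with GW3965, with the same range in both groups. The trunk and sterol median exceeded the isoprenoid median in 5 of 5 GW3965 libraries and in 2 of 5 DMSO libraries, but the groups overlapped. This difference of medians was -0.05, 0.08, 0.14, -0.04 and -0.13 in DMSO 1 to 5. In GW3965 1 to 5 it was 0.06, 0.11, 0.03, 0.08 and 0.28, so that only GW3965 5 lay above the DMSO range. In DMSO 5, 1 of 19 trunk and sterol genes was above its DMSO mean, and in GW3965 5, 18 of 19 were. GW3965 3 and 4 had similar counts, 17 and 19, so GW3965 5 differed from them in the size of its median. Neither DMSO 5 nor GW3965 5 was at an end of the range of reads, with 32856545 and 31895744. The 7SL RNA took 21.5% and 15.2% of their reads, within the 12.0% to 23.2% of all libraries. On the first principal component of all tested genes, DMSO 1 to 5 lay at -26.3, -0.84, 2.38, 32.6 and -21.1. GW3965 1 to 5 lay at -31.6, -25, 14.3, 26.8 and 28.8. With this component as a covariate, the trunk and sterol medians of log2 fold change were 0.14 and 0.11. The part of DMSO 5 and GW3965 5 in the group difference was not tested beyond leaving them out.

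**Figure D5:**
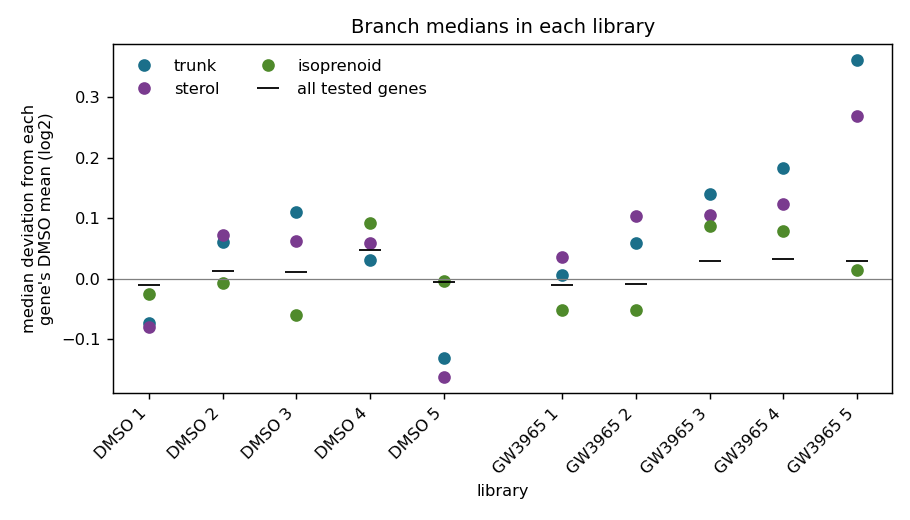
Median over the genes of each branch of log2(RPKM + 0.1) minus the gene's DMSO mean, per library (coloured points), with the median of all tested genes (black bars). The trunk and sterol points reach 0.36 and 0.27 in GW3965 5 and the isoprenoid points stay between -0.06 and 0.09.

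Among the genes around the pathway, calls were found only in the control of SREBP. Of 30 genes of prenyl processing, dolichol use, the ubiquinone ring, the ketone body route and accessory proteins, 28 were tested. Of these 0 were called, beside 0.157% of all tested genes, a share so low that 0 calls says little about 28 genes. Above 0 were 16 of the 28, beside 51.1% of all tested genes, and the median log2 fold change was 0.0098, beside 0.0034. At an unadjusted limma p under 0.05, 0 of them were higher, where 4.64% of all tested genes were higher. In the same way 0 were lower, where 481 of the 20402 tested genes were lower. Their ends were DPM3, a subunit of dolichol phosphate mannose synthase, at 0.19, and DOLPP1, a dolichyl diphosphate phosphatase, at -0.16.

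Of 7 genes of the SREBP control system, 2 were called, both higher, beside 0.157% of all tested genes called in either direction. SREBF1, which encodes a lipogenic SREBP and is a known LXR target, was at 12.9, 10.9, 11.0, 14.1 and 13.5 RPKM with DMSO and 22.0, 21.8, 21.4, 20.3 and 18.8 with GW3965. The groups were far apart, with a log2 fold change of 0.74 ± 0.08 (limma adjusted p = 0.00362), and the call was lost with a replicate block (0.0643). INSIG1, which holds SREBPs in the endoplasmic reticulum and is itself a known SREBP target, was at 23.5, 21.4, 22.8, 23.8 and 18.2 RPKM with DMSO and 31.5, 31.6, 29.4, 30.3 and 33.9 with GW3965. Its log2 fold change was 0.52 ± 0.08 (adjusted p = 0.0312), and its call was lost in 13 of 22 alternatives, with adjusted p up to 0.347. Leaving out 1 library ended it for DMSO 2 (0.0873), DMSO 3 (0.0737) and GW3965 1 (0.0857), 2 (0.105), 3 (0.0624), 4 (0.0894) and 5 (0.105). SREBF2, whose product is best known for the cholesterol enzymes, had a log2 fold change of 0.07 ± 0.06 (adjusted p = 0.872), and INSIG2 one of -0.04.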

How the data were processed

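RNA of PC3 cells was sequenced in 10 libraries, 5 with DMSO and 5 with GW3965, grouped and numbered by their titles. The authors deposited RPKM values for 62656 genes, 1 column per library. The labels name polyA RNA and a stranded kit with depletion of ribosomal RNA. The submitters' processing notes name bcl2fastq 2.20.0.422, cutadapt, HISAT2 2.1.0, HTSeq 0.11.2, DESeq2 1.22.2 and hg38, while the study's methods name a mouse genome; all gene identifiers are human. The annotation release, the strand setting and the handling of shared reads are not given in the sources used here.

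Reads behind the RPKM values were recovered from the ratios of each gene's values between libraries. Of the values above 0, 100% came out within 0.01 of a whole read. The scale between libraries is the authors' and does not follow the total of reads on genes. Relative to DMSO 1, a read counted 0.815 in DMSO 2, with 39384135 reads, and 0.912 in GW3965 3, with 41636379. The genes that averaged 0.5 RPKM or more over all libraries were fitted with limma 3.58.1 (R 4.3.3, lmFit and eBayes with a trend) on log2(RPKM + 0.1), GW3965 against DMSO, two-sided, with Benjamini-Hochberg adjustment over the 20402 tested genes. Fold changes are on that scale and understate the change of low genes. Enzymes below the filter were compared by an exact two-sided permutation test of RPKM over the libraries.

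The enzymes, branches and other lists were chosen with earlier results of these data known. Values were given in every library for enzymes past the threshold, those whose groups do not overlap, the 3 with the highest and the 3 with the lowest log2 fold change of each branch and those with fewer than 100 reads in a library, and DHCR7 and the CYP51A1 pseudogenes were added after their values were seen. Exon overlaps, and 50-base windows of transcripts that recur in other genes, were computed with GENCODE 29 (GRCh38). Promoter windows were those of RefSeq (GRCh38.p14), and the printed stretches lie in no GENCODE 29 exon. The alternatives were other pseudocounts (0.01 and 1), other filters, quantile normalization, equal summed RPKM and a replicate block. Further ones were no trend, library weights, voom, a principal component as a covariate and each library left out. After seeing the data, DMSO 5 and GW3965 5 were left out together and the CYP51A1 family was summed. In the same way CYP51A1, FNTB and GGPS1, with 37.3% or more of their exon bases shared on the same strand, were left out of the branches. FNTA (5.78%) and TM7SF2 (0.47%) also shared exon bases on the same strand and were kept.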

Additional observations from a re-analysis of the deposited data

Results flagged for a closer look

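In 70 groups of 5 libraries, those of the enzymes and control genes, the gap of the highest or lowest library to the next was compared with the range of its group. Of these 3 stood out, where chance gives about 1 in 20, or 3.5. HMGCS1 in GW3965 5 was at 25.7 RPKM with the next library at 21.1, a gap of 0.847 of the range, and GW3965 5 was also the highest library of 15 of 19 trunk and sterol genes. ABCA1 in DMSO 1 was at 5.75 RPKM with the next at 3.20, a gap of 0.782. MYLIP in DMSO 4 was at 2.64 RPKM with the next at 2.18, a gap of 0.711. The part of single libraries in these gaps was not tested.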

How the results depend on the processing

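The 32 calls over all tested genes became 21 with no filter on low values, 20 with no trend, 56 with library weights, 63 with voom, 83 with the first principal component as a covariate and 19 without DMSO 5 and GW3965 5 together, and 17 to 38 when 1 library was left out, with 18 without DMSO 3 and 17, 19 and 17 without GW3965 2, 3 and 4. Replicate numbers did not pair the libraries, since same-numbered deviations from the group means correlated with r from -0.14 to 0.16 and not every library correlated best with its own number. With the replicate block 16 genes were called and no enzyme. The count of enzymes called was 1, LSS, with library weights, voom and the first principal component, and 0 in every other alternative, with 0 to 0 when 1 library was left out. Scaling to equal summed RPKM put the branch medians at 0.27 (trunk), 0.25 (sterol) and 0.14 (isoprenoid), a shift of all genes. With 1 library left out they ran from 0.083 to 0.18, 0.071 to 0.14 and -0.015 to 0.038. Leaving out CYP51A1, FNTB and GGPS1 gave 0.11 for the sterol branch and 0.0037 for the isoprenoid branch. No enzyme with a reversed sign was called, and the cause was not tested.

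Signs turned as follows, in log2 fold change. Equal summed RPKM gave DHDDS 0.051, COQ2 0.091, FNTA 0.13, FNTB 0.0056 and PGGT1B 0.082. Quantile normalization gave SQLE -0.044 and PDSS1 -0.00077. Library weights gave COQ2 0.053 and FNTA 0.018. Voom gave PDSS1 -0.0021. The principal component gave SQLE -0.022, PDSS1 -0.032 and PGGT1B 0.0017. Leaving out DMSO 5 and GW3965 5 gave ACAT2 -0.094, FDFT1 -0.071, SQLE -0.084, NSDHL -0.030, HSD17B7 -0.038, PDSS1 -0.047 and PGGT1B 0.028. With 1 library left out, values ran from -0.040 to 0.047 for SQLE, -0.069 to 0.13 for PDSS1, -0.022 to 0.027 for FNTA, -0.20 to 0.016 for PGGT1B, -0.011 to 0.10 for HSD17B7, -0.10 to 0.044 for COQ2, -0.037 to 0.094 for ACAT2, -0.017 to 0.081 for FDFT1 and -0.0072 to 0.059 for NUS1. The edgeR and DESeq2 fits, planned only for a file of counts, were not run, and the recovered reads were fitted with voom.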
